A study of Schmidtea mediterranea with 36 samples.

Results

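In planarian flatworms fed double-stranded RNA (dsRNA) against the gene alx-3, 667 transcripts were higher than in control animals in all 3 libraries of every one of the 6 times sampled, and the 100 with the largest mean difference are described here. The members were chosen by a fixed rule on the values themselves. Each had to be an unnamed transcript (an identifier that starts with SmedASXL_ and carries no gene name), to have a mean normalized count of at least 20 in each of the 6 tables, and to have its 3 alx-3(RNAi) values all above its 3 control values in every table. The mean was taken over both conditions, so a transcript low in controls could reach it through its alx-3(RNAi) values. The 667 were then ranked by the mean over tables of the difference in log2(count + 1), and the highest 100 were kept. The members therefore make up 100 of 21581 transcripts that had enough counts, and of 71232 transcripts listed in any table.

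The series held 36 libraries of polyA-selected RNA from the asexual strain CIW4 of Schmidtea mediterranea, in 12 groups of 3. One condition, alx-3(RNAi), was set against control(RNAi), and both received 9 RNAi feedings before amputation. Tail fragments, cut behind the pharynx, were taken 0.5, 6, 24, 48 and 72 hours post-amputation (HPA), and intact animals of both conditions were collected as well. The control dsRNA targeted GFP, which planarians lack. A single dsRNA against alx-3 was used, and alx-3(RNAi) animals were generally larger at the end of the feedings, so body size and the loss of alx-3 cannot be told apart in these groups. The libraries of a group were biological replicates.

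The Alx genes encode paired-type homeodomain transcription factors. Planarians regenerate from neoblasts, dividing adult stem cells spread through the body, whose descendants pass through staged progenitors before they become skin, gut, muscle, nerve or parenchymal cells. RNAi by feeding spreads through the whole animal, so that every tissue of an intact worm and of a fragment carries the knockdown. Because each library was made from bulk tissue, more cells that express a transcript and more of that transcript per cell cannot be told apart.

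The target itself was lower in every alx-3(RNAi) library. At 0.5 HPA its transcript, SmedASXL_006490, stood at normalized counts of 630.1, 694 and 761 in control(RNAi) and at 233, 316 and 301 in alx-3(RNAi). In intact animals the controls read 702, 775 and 696 and the alx-3(RNAi) libraries 158, 172 and 183. The groups did not overlap at any time. The remaining level was lowest in intact animals, where the log2 difference was -2.08 ± 0.10 (limma SE, adjusted p = 1.34e-06), and highest at 0.5 HPA, where it was -1.30 ± 0.13 (limma SE, adjusted p = 0.000148). Summed normalized counts, in units of 1000000, ranged from 50.9 to 70.9 per library.

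The share of transcripts that were separated from the controls gives the background for the rule. Among the 21581 unnamed transcripts, all 3 alx-3(RNAi) values lay above all 3 controls for 17.0% at 0.5 HPA, 20.1% at 6 HPA, 16.4% at 24 HPA, 17.0% at 48 HPA, 27.7% at 72 HPA and 16.9% in intact animals, and in all 6 tables for 3.09%. The mirror rule, below all controls in all 6 tables, was met by 90 transcripts, or 0.417%. This balance depended on the scaling, and it was reversed by rescaling to one common total but not by quantile normalization. When libraries were rescaled to one common total, 199 transcripts met the rule and 444 met its mirror, and with quantile normalization the counts were 437 and 192. Of the 100 members, 65 still met the rule in all 6 tables after that rescaling. The alx-3(RNAi) libraries had higher summed counts than the controls as deposited, and under the rescaling the median difference of all 21581 transcripts moved from between 0.01 and 0.07 to between -0.13 and -0.05.

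The members' differences were moderate and of similar size at every time. The median difference was 0.57 on the log2(count + 1) scale at 0.5 HPA, 0.70 at 6 HPA, 0.78 at 24 HPA, 0.71 at 48 HPA, 0.68 at 72 HPA and 0.58 in intact animals. The median at 24 HPA corresponds to a 1.71-fold higher level and that at 0.5 HPA to 1.48-fold. After rescaling to one common total the medians were 0.47, 0.56, 0.69, 0.55, 0.47 and 0.49 in the same order. Since these differences chose the members, they are a description and carry no test.

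The time of the largest difference varied among members. The largest of a member's 6 differences fell at 24 HPA for 31 members, at 48 HPA for 27 and at 72 HPA for 23, while it fell at 6 HPA for 12, in intact animals for 4 and at 0.5 HPA for 3. The smallest fell at 0.5 HPA for 34 members and in intact animals for 28. Intact animals lay below the member's mean over the 5 tail times for 74 of the 100. The spread within a member was limited, with a median range of 0.42 over the 6 tables and 20 members under 0.3. Of the 100, 13 had a mean difference of at least 1 and 2 reached 1 in every table.

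**Figure D1:**
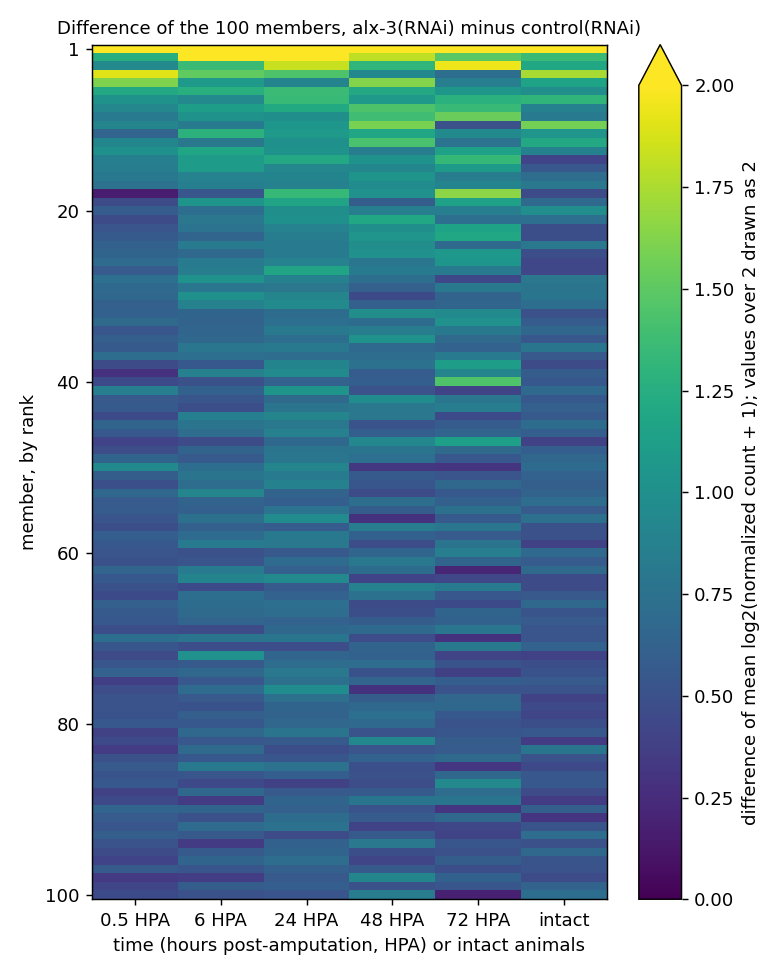
Difference in mean log2(normalized count + 1), alx-3(RNAi) minus control(RNAi), for the 100 members (rows, by rank) at the 6 times (columns). The first row, SmedASXL_011551, is above 3.04 in every column and drawn at the limit of the scale. The median range of a row over the columns is 0.42, and the 24 HPA column has the highest median at 0.78.

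Separation was often narrow. For each member the lowest alx-3(RNAi) value was divided by the highest control value in each table, and the smallest of the 6 ratios had a median of 1.095 over the members. It was under 1.1 for 52 members, as low as 1.0002, and at least 1.5 for 2 members.

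SmedASXL_011551 stood apart from the other members. It was low in controls and steady in alx-3(RNAi). At 0.5 HPA the controls read 17.5, 36.1 and 18.0 normalized counts, and the knockdown libraries read 230.1, 233 and 238. At 24 HPA the controls read 11.7, 18.8 and 17.5 and the knockdown libraries 220.3, 178 and 175. In intact animals the values were 28.7, 17.7 and 26.0 against 198, 186 and 229. All 18 alx-3(RNAi) values lay between 175 and 262 and all 18 controls between 10.5 and 36.1. The level with knockdown was thus 8.45-fold to 11.95-fold that of controls, with log2 differences of 3.05 to 3.54.

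SmedASXL_003435, ranked second, had low counts and moved with time. In controls it read 78.6, 94.7 and 29.6 at 0.5 HPA but 20.2, 3.52 and 10.2 at 6 HPA. The alx-3(RNAi) libraries read 174, 127 and 143 at 0.5 HPA and 72.7, 39.3 and 41.4 at 6 HPA. Both conditions were thus lower at 6 HPA than at 0.5 HPA, and the difference was 1.27 at the first time and 2.29 at the second. In intact animals the lowest knockdown value was 1.296 times the highest control, the narrowest gap of the 6 tables, at 63.0, 63.5 and 29.9 against 172, 82.3 and 149.

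SmedASXL_011785, next in rank, was more abundant. Its controls read 3940.2, 2684 and 3750.4 at 0.5 HPA and 656, 647 and 675 at 24 HPA. The alx-3(RNAi) libraries read 7529, 5429 and 6827 at 0.5 HPA and 2386, 2069.8 and 2632 at 24 HPA. The level was lower in both conditions at 24 HPA, and the log2 difference was 0.94 at 0.5 HPA, 1.83 at 24 HPA and 1.95 at 72 HPA. In intact animals, where the controls read 4841, 4509.7 and 2922, the alx-3(RNAi) libraries read 10346, 7360.5 and 10059.

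SmedASXL_075606, which followed it, had the opposite order of times. At 0.5 HPA its controls of 127, 249 and 205 stood against 813, 662 and 637 with knockdown, a log2 difference of 1.90. At 72 HPA the controls read 324, 236 and 187 and the alx-3(RNAi) libraries 345, 377 and 498, so that the lowest knockdown value was 1.06 times the highest control. In intact animals the difference was again wide, with 349.9, 300.2 and 284 against 1158, 1007 and 951.

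**Figure D2:**
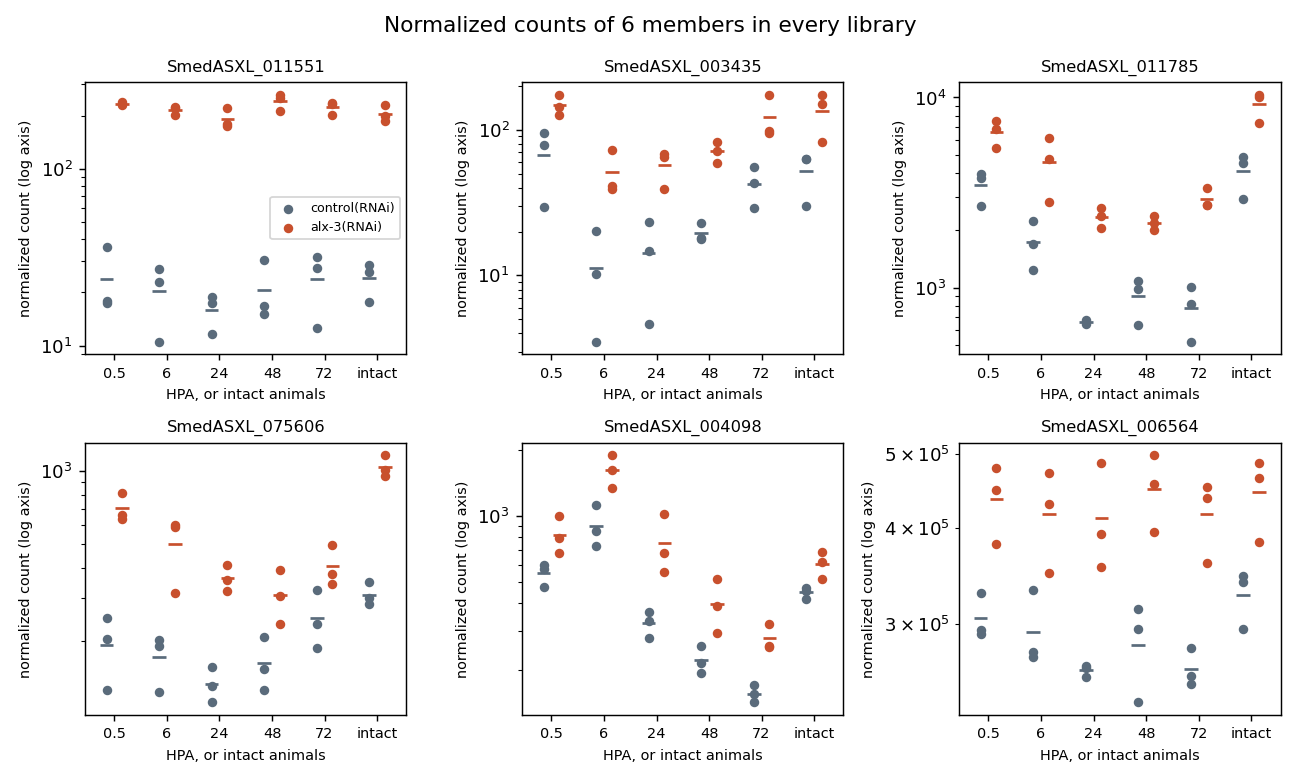
Normalized counts (log axis) of 6 members in each of the 36 libraries by time, with 3 points per group and a bar at the group mean. The alx-3(RNAi) points lie above the control points in every column, as the rule required; SmedASXL_011551 shows the widest gap, 8.45-fold to 11.95-fold, and SmedASXL_006564 one of the narrowest, 1.36-fold to 1.60-fold.

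The other 8 of the 12 highest-ranked members had mean differences of 1.02 to 1.21 and control means of 31.2 to 702 normalized counts. SmedASXL_009050 was among the steadiest of them. It read 451, 431 and 302 in controls against 928, 800.2 and 975 at 0.5 HPA, and 396, 367 and 286 against 771, 666 and 631 in intact animals. SmedASXL_007777 kept its control mean between 98.1 and 121 over the 6 tables and its alx-3(RNAi) mean between 226 and 269. SmedASXL_078965 differed most at 72 HPA, where 426, 523 and 387 in controls stood against 1593, 1046 and 1280.3, a log2 difference of 1.54. SmedASXL_010365 and SmedASXL_009247 differed most at 48 HPA, by 1.43 and 1.63, and SmedASXL_051660 at 6 HPA, by 1.29. SmedASXL_005696 read 185, 91.3 and 148 in controls at 6 HPA and 427, 189 and 325 in alx-3(RNAi), so that its lowest knockdown library was 1.02 times its highest control there.

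The members were more abundant than transcripts in general. The median control mean of the 100 was 882 normalized counts against 369 for all 21581 transcripts. Of the members, 10 had a control mean of at least 10000, where 3.65% of all transcripts did, and 12 were under 100, where 31.5% did. The rule asks for separation in every table, which low counts meet less readily, so that this abundance cannot be told apart from the choice.

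SmedASXL_006564 was the most abundant member. Its controls read 290888, 329669.6 and 294598 at 0.5 HPA and 236941, 295183 and 313241 at 48 HPA. The alx-3(RNAi) libraries read 479288, 381933 and 448724 at 0.5 HPA and 497922, 395234 and 456872 at 48 HPA. In intact animals the closest pair was 383500.0 in alx-3(RNAi) replicate 2 and 346566 in control replicate 2, so that the groups were near each other but did not overlap. The log2 difference lay between 0.44 and 0.68.

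SmedASXL_006358 and SmedASXL_008144 followed, with control means over the tables of 110901 and 76857 normalized counts. SmedASXL_006358 read 108183, 96307 and 93381 in controls at 24 HPA against 189826, 145542 and 154713. SmedASXL_008144 read 76085, 62608 and 60529 against 135401, 102529 and 111929 at the same time. The differences there were 0.71 and 0.81, and both members differed least in intact animals, by 0.48 and 0.50. SmedASXL_018089 was next, with 50428, 32101 and 44974 in controls at 6 HPA against 81482, 62820.4 and 76834, a log2 difference of 0.81. At 72 HPA its values of 48028, 49215 and 45837 stood against 58797, 64605 and 54799, a difference of 0.31.

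The 100 members together took a measurable share of each library. In controls they held 1.60% ± 0.134 (SD, n = 3) of the summed normalized counts at 0.5 HPA, 1.22% ± 0.0430 at 24 HPA and 1.49% ± 0.0815 in intact animals. In alx-3(RNAi) the shares were 2.17% ± 0.164, 1.88% ± 0.172 and 1.99% ± 0.221. All 18 knockdown libraries, from 1.65% upward, exceeded the controls of their own time. The 3 most abundant members made up 58.8% to 63.6% of the members' counts in control libraries and 58.5% to 63.1% with knockdown. A share does not depend on the scaling between libraries, but the members were chosen for this direction.

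**Figure D3:**
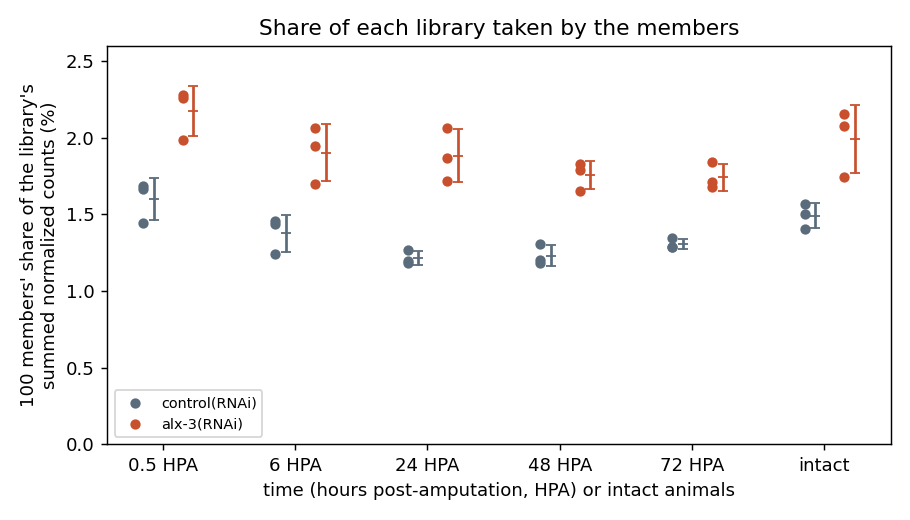
Share of each library's summed normalized counts taken by the 100 members (%, from 0), by time, for 3 control(RNAi) and 3 alx-3(RNAi) libraries, with mean and SD beside the points. Control shares go from 1.60% at 0.5 HPA to 1.22% at 24 HPA, and the alx-3(RNAi) points sit higher at every time.

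Members differed in how steady their difference was. SmedASXL_019259 had the smallest range, with log2 differences of 0.55 to 0.65. Its controls read 1320.4, 1323 and 1151 at 0.5 HPA and 1160.4, 1056 and 815 in intact animals, and its alx-3(RNAi) libraries read 2032, 1634 and 1892 and then 1526, 1438 and 1495. SmedASXL_041024, at 0.48 to 0.61, and SmedASXL_002169, at 0.58 to 0.72, were nearly as steady.

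SmedASXL_030030 had the largest range. At 0.5 HPA its controls of 35.96, 38.3 and 35.9 stood just under 41.4, 39.3 and 43.2 in alx-3(RNAi), a log2 difference of 0.16. At 72 HPA the controls read 12.2, 17.1 and 16.5 and the alx-3(RNAi) libraries 64.8, 43.9 and 42.7, a difference of 1.65. The control level was lower at 72 HPA than at 0.5 HPA while the knockdown level was not. SmedASXL_013902 went from 0.50 at 72 HPA, with 28.9, 41.2 and 39.8 against 59.99, 52.1 and 43.9, to 1.60 at 48 HPA, with 14.8, 38.7 and 22.2 against 84.7, 77.7 and 58.7. Both have low counts, and the limma SE of their differences reached 0.34 and 0.32.

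At the limit of 100 the members ran into the transcripts left out. SmedASXL_002991, at rank 99, had a mean difference of 0.544, and SmedASXL_011038, at rank 100, one of 0.537. Just outside lay SmedASXL_006792 at 0.536 and SmedASXL_008255 at 0.534. SmedASXL_011038 read 209.9, 182 and 209.7 in controls at 72 HPA against 218, 211 and 256, and SmedASXL_006792 read 2316, 2219 and 2015 against 3180.2, 2788 and 2900.1. The limit thus separates transcripts with like values.

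A test of the pattern needs values that the choice did not use. The same rule was therefore applied to 5 of the tables at a time, and the 100 transcripts with the largest mean difference were tested in the table left out, with limma across all transcripts of that table and Benjamini-Hochberg adjustment. Of the 100 picked without the 0.5 HPA table, 70 were called higher there, at an adjusted p under 0.05, and 0 lower, where 1.24% of all transcripts tested were called higher. At 6 HPA 66 of 100 were called higher against 1.72% of all, at 24 HPA 91 against 4.28%, at 48 HPA 76 against 2.36%, at 72 HPA 89 against 10.5% and in intact animals 36 against 0.384%. The picked transcripts called lower numbered 0 in each of the 6 tables, where 0.794%, 0.621%, 3.01%, 1.11%, 2.62% and 0.501% of all transcripts were. At an unadjusted p under 0.05 in limma, 90, 94, 98, 93, 93 and 92 of the picked transcripts were higher and 0 lower in each table, where 9.12%, 10.9%, 10.8%, 9.83%, 18.3% and 9.42% of all transcripts tested were higher. Among unnamed transcripts with as high a mean count in the other 5 tables the shares called higher were 1.79%, 2.49%, 5.73%, 3.31%, 15.7% and 0.506%.

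The direction held for nearly all of them. In the table left out, 99, 99, 100, 100, 99 and 100 of the 100 had a positive difference, and the median log2 differences were 0.55, 0.67, 0.77, 0.65, 0.65 and 0.56. All 3 alx-3(RNAi) values exceeded all 3 controls for 89, 90, 97, 92, 95 and 87 of them. SmedASXL_011551 ranked first in each of the 6 choices and was called higher in each table left out, with adjusted p-values from limma of 7.05e-07 to 6.86e-05. SmedASXL_003435 ranked second in each and was called in 4, with an adjusted p of 0.0723 at 0.5 HPA and of 0.0896 in intact animals. The 6 choices overlap, since 74 transcripts were picked in all of them and 160 in at least 1.

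**Figure D4:**
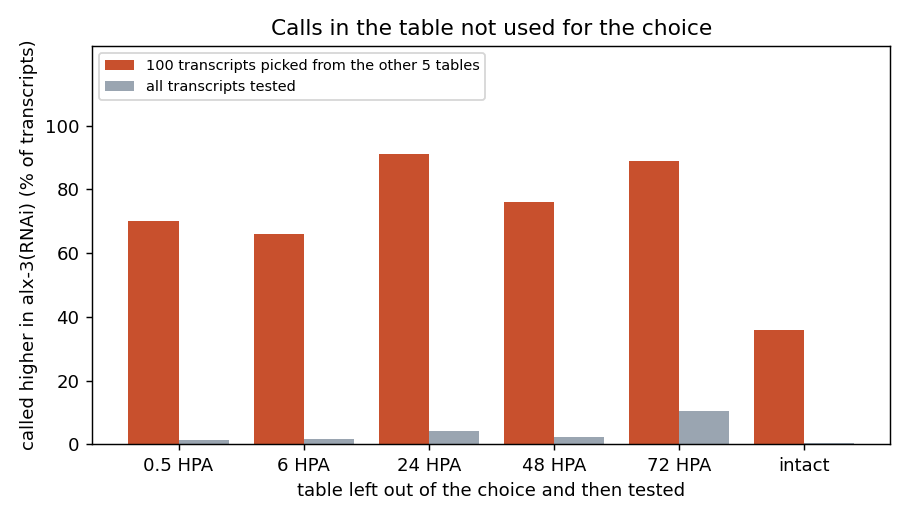
Share of transcripts called higher in alx-3(RNAi) (%, limma, adjusted p under 0.05) in each table, for the 100 picked from the other 5 tables and for all transcripts tested in it. The picked transcripts reach 36% to 91%, and all transcripts 0.384% to 10.5%.

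The count in intact animals rested on single libraries. Without alx-3(RNAi) replicate 2 it was 92, and without alx-3(RNAi) replicate 1 or 3 it was 6 and 9. Without control replicate 1, 2 or 3 it was 20, 8 and 8. At 0.5 HPA the 70 became 33 without alx-3(RNAi) replicate 1 and 38 without replicate 3, and at 48 HPA the 76 became 38 and 44 without the same replicates. At 6 HPA the 66 became 42 when the libraries were rescaled to the same total. Leaving out any one library at 24 HPA or 72 HPA kept the count at 76 or more.

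The 6 tables may not be separate sets of animals. For each library the median over the members of the deviation from its own group mean was taken. It was above 0 for alx-3(RNAi) replicate 1 at 6 of 6 times, by 0.08 to 0.18 on the log2 scale, and below 0 for alx-3(RNAi) replicate 2 at 6 of 6 times, by -0.17 to -0.11. The control libraries kept no such order, with replicate 1 above at 5 times, replicate 2 at 4 and replicate 3 at 2. Replicate 2 of alx-3(RNAi) also had the lowest summed count of its group at 6 times and replicate 1 the highest at 5. After rescaling to one common total, the order of the alx-3(RNAi) replicates stayed, at 0.04 to 0.12 for replicate 1 and -0.16 to -0.05 for replicate 2.

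The labels do not say whether libraries of one number came from one batch of RNAi animals. Across all 21581 transcripts the deviations of same-numbered alx-3(RNAi) libraries at 2 times had a median correlation of 0.05 over 45 pairs, against -0.04 for libraries of other numbers. Where tables share animals, a table left out is no separate trial of the knockdown. Leaving alx-3(RNAi) replicate 2 out of every table raised the number of transcripts that met the rule from 667 to 1571, and leaving out replicate 1 gave 691. With a library left out fewer values have to be separated, which makes the rule easier to meet. This is most so for a replicate that tends to be the lowest of its group, so these counts do not bear on shared animals.

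**Figure D5:**
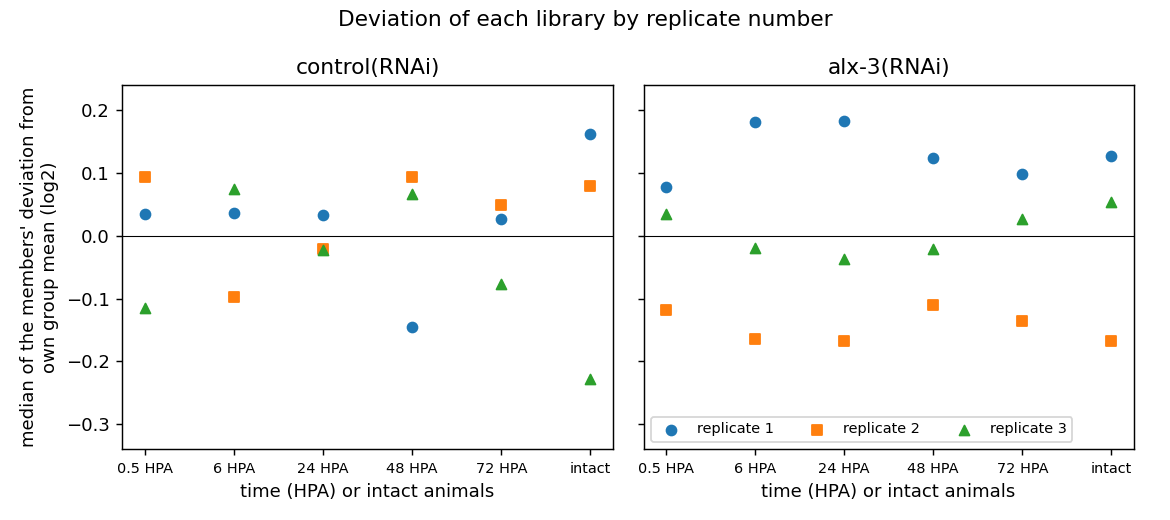
Median over the 100 members of each library's deviation from its own group mean (log2), by time, for control(RNAi) (left) and alx-3(RNAi) (right), with one symbol per replicate number. Replicate 1 of alx-3(RNAi) lies above 0 and replicate 2 below 0 at all 6 times, and the control symbols change places.

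Most members were lower in controls at later times of regeneration than at 0.5 HPA. Each level was expressed per 1000000 of the library's summed counts, which allows a description across tables that were scaled separately but no test. Relative to 0.5 HPA, 86 of the 100 members were lower at 6 HPA, 93 at 24 HPA, 95 at 48 HPA, 80 at 72 HPA and 73 in intact animals. Of all unnamed transcripts with enough counts, 56.7%, 59.8%, 52.3%, 46.9% and 47.2% were lower in the same order. The median log2 ratios were -0.24, -0.42, -0.45, -0.38 and -0.14. For all 21581 transcripts the medians were -0.04, -0.07, -0.01, 0.02 and 0.02. The alx-3(RNAi) libraries had the same course with smaller steps, at -0.19, -0.24, -0.35, -0.31 and -0.10 for the members. In control tails 69 members had their highest level at 0.5 HPA and 18 at 72 HPA, and the same shares over all transcripts were not counted.

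The size of that change varied among members. The ratio of the highest to the lowest control level over the 5 tail times had a median of 1.59 and was at least 2 for 18 members. SmedASXL_003435 covered 6.20-fold, from 1.26 ± 0.637 per 1000000 (SD, n = 3) at 0.5 HPA to 0.204 ± 0.157 at 6 HPA. SmedASXL_011785 covered 5.39-fold, from 64.4 ± 14.8 at 0.5 HPA to 11.96 ± 0.225 at 24 HPA. SmedASXL_015354 covered 3.26-fold, with its highest level, 7.00 ± 1.63 per 1000000, at 0.5 HPA and its lowest, 2.15 ± 0.505, at 24 HPA.

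SmedASXL_004098 peaked later than these. Its control level was 10.2 ± 1.58 per 1000000 at 0.5 HPA, 16.1 ± 4.14 at 6 HPA and 2.80 ± 0.247 at 72 HPA, a 5.76-fold range. In normalized counts its controls read 1127, 733 and 854 at 6 HPA against 1889, 1338 and 1614 in alx-3(RNAi), and 169.7, 155 and 142 at 72 HPA against 321, 257 and 254. Both conditions were therefore higher at 6 HPA than at 0.5 HPA and lowest at 72 HPA, with the knockdown libraries higher at each time.

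Intact animals and fresh tail fragments differed for some members. The control level in intact animals was 1.99 times that at 0.5 HPA for SmedASXL_019449, at 2.75 ± 0.373 per 1000000 against 1.39 ± 0.256 (SD, n = 3). The ratio was 1.82 for SmedASXL_003237 and 1.67 for SmedASXL_011083. At the other end it was 0.55 for SmedASXL_013902, 0.58 for SmedASXL_004429 and 0.62 for SmedASXL_071929. The 0.5 HPA samples are tails and the intact samples whole animals, so body region and injury cannot be told apart in these ratios. Each of the 6 was still above its controls in all tables, SmedASXL_004429 for example with 885, 859.8 and 842 against 1917, 1635 and 1661 at 24 HPA.

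The members also varied together between libraries of one group. The rule compared the lowest alx-3(RNAi) library with the highest control, so the choice used these same values and can enter this measure. Over the 36 libraries, each taken as its deviation from its own group mean, the correlation of a member with the median of the other members had a median of 0.72 and was over 0.5 for 78 of the 100. For the 21481 other transcripts the median was 0.10 and 20.6% were over 0.5. SmedASXL_006358, at 0.93, and SmedASXL_041024, at 0.91, followed the others closely, and SmedASXL_051660, at 0.08, and SmedASXL_011038, at 0.17, did not. SmedASXL_011551 was at 0.35. These correlations are a description: the 36 points share their groups and scaling, abundant transcripts have less counting error, and the order of the alx-3(RNAi) replicates enters them.

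Transcripts with gene names were not eligible, and those most like the members in this measure were taken from the same tables. They were MyD88-1, at 0.94, named for an adaptor of Toll-like receptor signalling in other animals, and activin, at 0.91, a ligand of the TGF-beta family. LOXL2, at 0.86, is named for a lysyl oxidase that cross-links collagen, cathepsin L-1-2, at 0.85, for a lysosomal protease, and prog-1j, at 0.84, for the prog family, which marks postmitotic descendants of neoblasts.

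Of 242 named transcripts with enough counts, 17 met the same pattern of separation and 0 met its mirror, a share of 7.02% where 3.09% of unnamed transcripts met it. Of the 17, 11 belonged to the prog family, out of 18 eligible transcripts of it. The higher share rested on this family, and outside it the share of named transcripts was not above that of unnamed ones. The highest of the 11, prog-2, read 89.3, 65.8 and 44.5 in intact controls against 239, 192 and 219, and 202, 217 and 188 at 72 HPA against 255, 276 and 299. Its log2 difference went from 0.45 at 72 HPA to 1.74 in intact animals. The remaining prog transcripts of the 17 had mean differences of 0.33 to 0.63. Members of this family share sequence, and how reads were divided among near-identical copies was not tested.

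The other 6 were ALAS, PBGD-1, KMO-1, activin, pepck and pXW0053. ALAS and PBGD-1 carry the names of enzymes of heme synthesis, KMO-1 that of a kynurenine monooxygenase, which in planarians contributes to ommochrome pigment, and pepck that of an enzyme of gluconeogenesis. ALAS read 7776, 7588 and 7821 in controls at 24 HPA against 15487, 12008 and 12941, and its log2 difference lay between 0.50 and 0.81. Activin read 1609, 1786 and 1678 at 72 HPA against 3847, 3199.8 and 3202, a difference of 1.01, and differed by 0.48 in intact animals. PBGD-1 had a mean difference of 0.52, KMO-1 of 0.50, pepck of 0.47 and pXW0053 of 0.42.

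The markers of epidermal progeny (18 prog transcripts and 5 AGAT transcripts, which mark a later stage of the same lineage) were tested with limma across all transcripts of each table. Of the 23, 10 were called higher at 0.5 HPA and 13 at 6 HPA with 0 lower, 14 higher and 2 lower at 24 HPA, and 12, 20 and 6 higher at 48 HPA, 72 HPA and in intact animals with 0 lower. The shares of all transcripts called higher were those given above, from 0.384% to 10.5%. The 2 called lower at 24 HPA were prog-1h, with 11982, 12319.7 and 11979 against 8578, 8793 and 10949, and prog-1i, with 4348, 4452 and 5331 against 2842, 1622 and 3603. The count of 6 in intact animals became 1 to 19 with one library left out: 19 without alx-3(RNAi) replicate 2, and 1 without alx-3(RNAi) replicate 1 or 3 or control replicate 2 or 3. At 0.5 HPA the 10 became 5 and 4 without alx-3(RNAi) replicate 1 and 3, and 6 with libraries rescaled to the same total, and at 48 HPA the 12 became 6 and 7 without those replicates.

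Other tissue markers differed with the condition in both directions, and their part in the members' differences was not tested. The summed normalized counts of the 23 epidermal progeny transcripts were 1.15 to 1.35 times the control mean in alx-3(RNAi) over the 6 tables. Those of 8 neoblast transcripts were 0.95 to 1.15 times it, and those of 6 parenchymal and pigment transcripts, ALAS and KMO-1 among them, 1.09 to 1.25 times. The 2 gut transcripts stood at 1.15 to 1.39 times. The single muscle marker, titin, was at 0.37 to 0.55 times the control mean in the 5 tail tables, where its groups overlapped at 48 HPA alone, and at 1.15 times in intact animals, where they overlapped. The single neural marker, COE, was at 0.74 to 0.91 times in all 6, with overlap at 6 and 48 HPA. The 2 anterior transcripts, sfrp-a and wnt2-1, were at 0.41 to 1.03 times, and the 2 posterior ones, sp5 and wntP-2, at 0.95 to 1.89 times with the highest value at 72 HPA. Ribosomal RNA sequences summed to 1.11 to 1.33 times the control mean. The summed counts of alx-3(RNAi) libraries were generally higher, which enters all these ratios. As a share of the library, neoblast transcripts went from 0.321% in controls to 0.291% at 24 HPA. They went from 0.372% to 0.332% at 48 HPA and from 0.422% to 0.348% at 72 HPA, and were slightly higher with knockdown at the other times. The share of epidermal progeny transcripts was higher with knockdown at every time.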

How the data were processed

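RNA from tail fragments and intact planarians was sequenced after polyA selection, and per the labels Trimmomatic 0.39, Salmon 1.4.0 and DESeq2 1.30.1 were used. The values deposited by the authors are a signal: estimated counts per transcript scaled by DESeq2 size factors within each table of 6 libraries, with no division by length although a header names RPKM. Tables were scaled separately, so tests stayed within a table. Columns of the authors' own comparisons were not used. Whole reads were not recovered, so differences are on the log2(count + 1) scale, which understates changes of low transcripts. Tests used limma 3.58.1 with R 4.3.3, with a mean-variance trend, on transcripts that reached 10 normalized counts in 3 or more of the 6 libraries, and were checked on simulated data. P-values measure the spread between 3 libraries of a group.

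The members and gene lists were chosen with earlier results of these data known. The text names alx-3, the 12 highest-ranked members, 2 on each side of the limit, the members with extreme counts, ranges, control courses or intact levels, the named transcripts with the same pattern, and the 5 named transcripts that varied most like the members. The remaining steps used Python 3.11.15. Alternatives were other pseudocounts, filters and scalings, one fit over 36 libraries, a replicate block and leaving out each library. The annotation and sequence of the unnamed transcripts were not used here.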

Additional observations from a re-analysis of the deposited data

Results flagged for a closer look

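One named marker of epidermal progeny, prog-1i, differed in opposite directions between times, and the difference between times was not tested. All 3 alx-3(RNAi) libraries lay below all 3 controls at 6 HPA, with a log2 difference of -0.31, and at 24 HPA, with -0.88. At 48 HPA all 3 lay above them, with 0.51. With 3 libraries per group no library was tested for standing apart from its group.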

How the results depend on the processing

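Scaling and single libraries moved several results. With libraries rescaled to one common total, 199 transcripts met the rule in place of 667, 65 members were among the 100 highest-ranked, and the members' median difference was 0.56 at 6 HPA, 0.55 at 48 HPA and 0.47 at 72 HPA. In the same setting 42 of the transcripts picked without 6 HPA were called there, and 6 and 12 epidermal progeny transcripts were called at 0.5 and 72 HPA. With quantile normalization 437 transcripts met the rule and the median at 72 HPA was 0.55. One fit over 36 libraries called 63 of the picked transcripts in intact animals, and 9 and 16 progeny transcripts at 24 HPA and in intact animals. Without alx-3(RNAi) replicate 2 in every table, an alternative chosen after seeing the data, 1571 transcripts met the rule, in part because fewer values have to be separated. The cause of the other shifts was not tested.

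Leaving out one library gave 33 to 79 calls among picked transcripts at 0.5 HPA, 45 to 77 at 6 HPA, 76 to 89 at 24 HPA, 38 to 84 at 48 HPA, 76 to 90 at 72 HPA and 6 to 92 in intact animals. Among the progeny transcripts it gave 4 to 13 at 0.5 HPA, 11 to 14 at 24 HPA, 6 to 14 at 48 HPA, 14 to 20 at 72 HPA and 1 to 19 in intact animals. Between 667 and 826 transcripts met the rule, which is easier to meet with fewer values to separate, and 90 to 100 members stayed among the highest 100. The difference of alx-3 kept its direction and its call under every alternative run, from -2.16 to -1.16. Picking and testing under one scaling, also chosen after seeing the data, gave 45 to 94 calls per table with one common total and 39 to 88 with quantile normalization.

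Replicate numbers did not pair alx-3(RNAi) with control libraries: the deviations of same-numbered libraries correlated at over 0.1 in 4 of 18 pairs, from -0.34 to 0.23. With a replicate block 54 to 91 of the picked transcripts were called per table, 54 of them in intact animals, and 11 progeny transcripts were called in intact animals. With 3 libraries per group, transcripts with few counts had the widest errors.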
